A study of Mus musculus with 7 samples.

Results

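Of the 10109 regions bound by ATF4 in mouse dermal fibroblasts under endoplasmic reticulum stress, 333 lay in partially methylated DNA and overlapped no CEBPB region. They were chosen as ATF4 peaks on the autosomes (9833 peaks) that shared no base with a CEBPB peak of the same treatment (9406 peaks) and whose measured CpG cytosines had a mean methylation over 10% and under 50%. Methylation therefore chose them, together with the absence of CEBPB, and both are described below without a test. Among the other ATF4 peaks without CEBPB, 7431 had a mean of 10% or less (called unmethylated here), 1165 had a mean of 50% or more (called methylated) and 477 held no measured CpG. Another 54 partially methylated ATF4 peaks overlapped a CEBPB peak.

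The study used primary dermal fibroblasts of female FVB/N mice, grown for 8 days in DMEM/F12 medium with 10% serum. ATF4 was immunoprecipitated with a CREB-2 (C-20) antibody from cells given thapsigargin for 3 h, and CEBPB with a C-19 antibody from treated and from untreated cells. Thapsigargin empties the calcium store of the endoplasmic reticulum and so disturbs protein folding there, and ATF4 was not immunoprecipitated from untreated cells. RNA was sequenced from untreated and treated cells, and whole-genome bisulfite sequencing covered 2 libraries of fibroblasts whose labels carry no thapsigargin. Each immunoprecipitation and each RNA condition had 1 library, so no difference below has a replicate check and none has a p-value. How many animals the cells came from is not given in the sources used here.

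ATF4 is a basic leucine zipper (bZIP) factor whose protein is made when the kinases of the integrated stress response slow general translation. It binds as a dimer, often with a C/EBP protein, to composite elements that join a half-site of the ATF family to a half-site of the C/EBP family, and as such switches on amino acid, redox and chaperone genes. Most CpGs of a mammalian fibroblast genome are methylated, while CpG-rich gene starts are kept free of methylation. Imprinted genes are an exception: at their control regions the copy from 1 parent is methylated and the other is not, so a sample of many cells reads an intermediate percentage.

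Of the 333 peaks, 6 held any of the 5 eight-base ATF or C/EBP words that were searched, and 3 of these are printed because they show such letters in partially methylated DNA outside copied sequence. They are mm9 reference sequence, 100 bases each, with the word in capitals. A gene start in a label means that the peak came within 1 kb of an annotated start. The first word is the composite element TGATGCAA. The second is its form with a CpG, CGATGCAA, on the reverse strand of the chromosome. The third is the C/EBP palindrome with a central CpG.
Intergenic, near Serpinh1, chr7:106508770-106508869, + strand: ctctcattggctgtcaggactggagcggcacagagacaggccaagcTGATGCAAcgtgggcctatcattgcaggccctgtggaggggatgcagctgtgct
Gltpd2 gene start, chr11:70333644-70333743, - strand: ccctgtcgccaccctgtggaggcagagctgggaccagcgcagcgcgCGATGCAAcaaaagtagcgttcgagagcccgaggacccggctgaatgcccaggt
Klhl30 coding exon, chr1:93241650-93241749, + strand: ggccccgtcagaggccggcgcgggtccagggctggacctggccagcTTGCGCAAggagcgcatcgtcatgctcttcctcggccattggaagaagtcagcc

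The next 3 stretches lie in peaks at the starts of imprinted genes and are shown because their intermediate CpGs can be followed letter by letter. They are 150 bases of the mm9 plus strand each, with every CpG in capitals.
Plagl1, chr10:12810438-12810587, + strand: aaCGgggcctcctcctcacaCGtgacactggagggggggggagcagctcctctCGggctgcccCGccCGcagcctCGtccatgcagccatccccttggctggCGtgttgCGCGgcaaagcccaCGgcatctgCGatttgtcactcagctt
Igf2r, chr17:12962540-12962689, + strand: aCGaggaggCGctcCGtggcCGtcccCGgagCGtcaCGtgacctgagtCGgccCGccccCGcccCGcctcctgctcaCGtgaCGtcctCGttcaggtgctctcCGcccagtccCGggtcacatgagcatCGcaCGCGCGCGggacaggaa
Nap1l5, chr6:58856804-58856953, + strand: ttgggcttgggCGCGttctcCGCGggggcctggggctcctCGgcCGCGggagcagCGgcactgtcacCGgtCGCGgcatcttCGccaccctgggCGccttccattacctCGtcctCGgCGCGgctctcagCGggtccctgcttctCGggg
Coordinates here and below are those of mm9. The Plagl1 stretch holds 11 CpGs, whose 22 measured cytosines ran from 29% to 61% methylated. The Igf2r stretch holds 21 CpGs with cytosines from 5% to 49%, and the Nap1l5 stretch 19 CpGs with cytosines from 24% to 62%. No cytosine in any of the 3 stretches was fully methylated, although CpGs stand a few bases apart along each of them.

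The 333 peaks had a median width of 237 bp (197 to 716) and a median of 38 measured CpG cytosines (quartiles 14 and 60, range 1 to 175), counting both strands. Their mean methylation had a median of 28.0%, with quartiles of 15.6% and 39.8%. By level, 116 lay between 10% and 20%, 66 between 20% and 30%, 68 between 30% and 40%, and 83 between 40% and 50%. No band was empty, and the lowest held the most peaks. The thresholds cut through a continuum: the 3 peaks just inside 10% had 10.0%, 10.2% and 10.2%, and the 3 just outside had 9.99%, 9.98% and 9.98%. At the upper end the 3 nearest inside had 49.9%, 49.8% and 49.7%, and 3 peaks stood at exactly 50%, on 1, 2 and 1 cytosines. Of the 333 peaks, 61 rested on fewer than 6 cytosines, and their means are correspondingly loose, because the deposited percentages come without read coverage.

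Single cytosines in these peaks were of intermediate or low methylation, and few were highly methylated. Of 13882 cytosines, 52.3% were between 20% and 80% methylated, 46.5% were below 20% and 1.10% were above 80%. The unmethylated peaks had 99.8% of their cytosines below 20%, and the methylated peaks had 60.8% above 80%. In a typical member 62.5% of the cytosines were between 20% and 80% (quartiles 27.8% and 87.5%). The cytosines of the 2 strands of a CpG had close values: over 6807 CpGs read on both strands the median absolute difference was 6 percentage points and the upper quartile 12. Across those CpGs Pearson's r was 0.791, a description over sites that share their libraries. A percentage here is an average over cells and over both parental copies, which cannot be told apart.

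**Figure D1:**
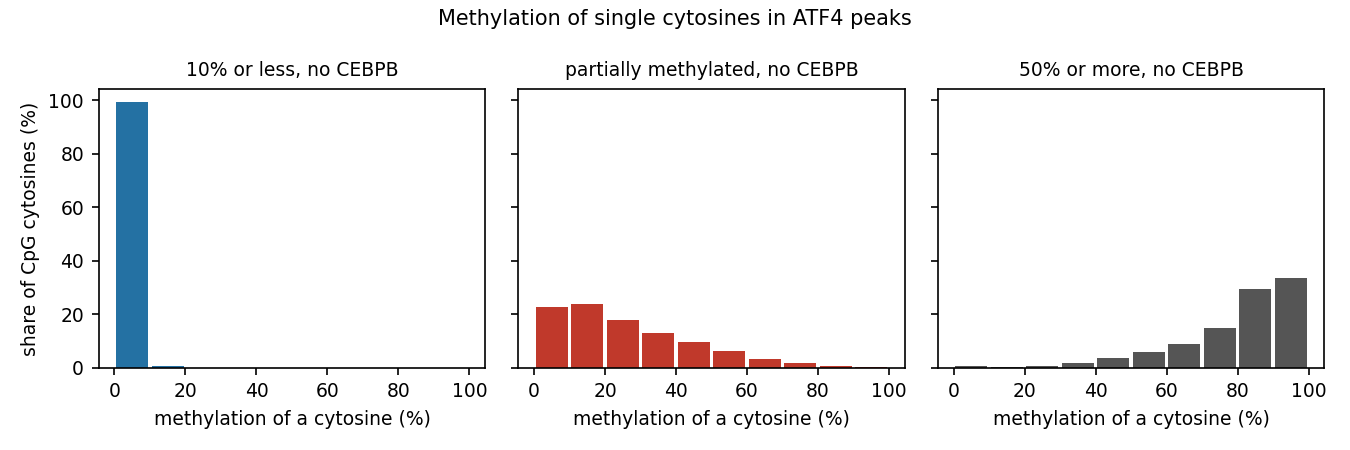
Share of CpG cytosines (y axis, percent of all measured cytosines in the peaks) by the methylation of the cytosine (x axis, percent, bins of 10 percentage points) in ATF4 peaks without CEBPB of 3 methylation classes. Unmethylated peaks hold 99.8% of their cytosines below 20%, methylated peaks 60.8% above 80%, and partially methylated peaks spread from 0% upwards with 52.3% between 20% and 80%.

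Of 240 members with 20 or more cytosines, 30 had at least 90% of them between 20% and 80%, and in 5 every cytosine was there. These 5, singled out after their values were seen, were peaks at the starts of Nap1l5 (76 cytosines, 24% to 64%) and Kcnab2, a potassium channel subunit (22 cytosines, 23% to 70%), in coding exons of Neurl3, a ubiquitin ligase (38 cytosines, 20% to 71%), and 6330408A02Rik (28 cytosines, 30% to 71%), and in an intron of the protocadherin gene Pcdhgc5 (36 cytosines, 20% to 78%). None of the 240 lacked a cytosine in that range. The other pattern was a border: in 22 of 329 members with CpGs on both sides (6.69%) the 1-kb flank on 1 side had a mean of 20% or less and the other a mean of 60% or more, against 2.31% of unmethylated and 0.523% of methylated peaks. Partially methylated peaks with CEBPB had a like share, 3 of 51 (5.88%, interval 2.02% to 15.9%). One example lay at the start of Dazl, a germline RNA-binding protein gene, where the flanks had means of 5.14% and 88.8% and the peak 13.1%. Another lay at Taco1, which encodes a mitochondrial translation activator, with flanks at 0.272% and 79.1% and the peak at 20.7%.

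The mean of the flank was above that of the peak on both sides in 254 of the 329 (77.2%), against 87.5% of unmethylated and 21.2% of methylated peaks and 44 of 51 partially methylated peaks with CEBPB. Choosing peaks of a mean under 50% favours such a dip, which is given as a description, and the flanks of members had medians of 54.9% and 55.3%. Unmethylated peaks had flank medians of 7.83% and 7.95%, and methylated peaks 77.8% and 78.2%. Averaged over the members with CpGs in each bin, methylation was 29.1% and 30.7% in the 200 bp on each side of the centre, 43.0% and 43.6% in the next 200 bp, and 64.3% and 61.6% between 800 bp and 1 kb. The dip was narrower than that of unmethylated peaks, whose mean methylation was 35.7% between 800 bp and 1 kb downstream along the chromosome and still rising. Only 10 members had an unmethylated ATF4 peak within 2 kb, so few stood on the shoulder of such a peak.

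**Figure D2:**
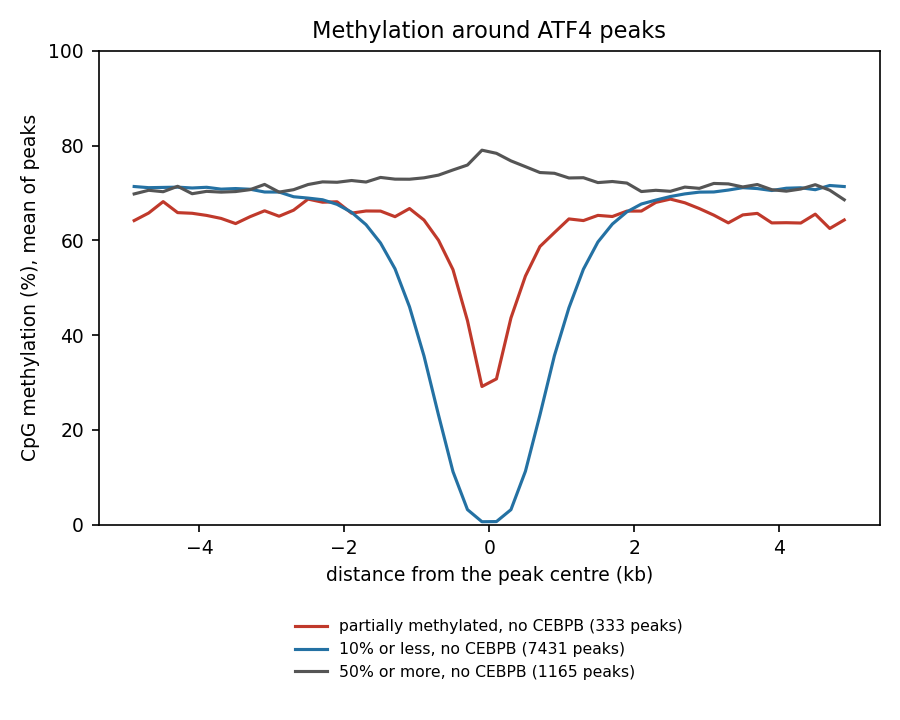
Mean CpG methylation (y axis, percent, mean over peaks in bins of 200 bp) against the distance from the ATF4 peak centre (x axis, kb), for ATF4 peaks without CEBPB of 3 methylation classes. Partially methylated peaks dip to 29.1% at the centre within DNA of over 60%, unmethylated peaks sit in a broad unmethylated stretch, and methylated peaks show no dip.

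Members lay at gene starts less often than unmethylated peaks and more often than methylated ones. Of the 333, 115 came within 1 kb of an annotated start (34.5%, 95% Wilson interval 29.6% to 39.8%, counting error only), compared with 91.1% of unmethylated and 13.6% of methylated peaks. Another 73 (21.9%) had their centre in a coding exon and 6 in another exon, while 49 (14.7%) were intronic and 90 (27.0%) intergenic. Coding exons took 22.9% of methylated (interval 20.6% to 25.4%) and 2.52% of unmethylated peaks. Peaks near a gene start were not counted as exonic, so these shares depend on the share at gene starts. Among peaks away from gene starts, coding exons held 73 of 218 members, 187 of 664 unmethylated and 267 of 1007 methylated peaks. At gene starts were 50 of the 116 peaks between 10% and 20%, 32 of the 66 between 20% and 30%, 18 of the 68 between 30% and 40% and 15 of the 83 between 40% and 50%. Gene-start members had a median methylation of 23.4% on a median of 50 cytosines, exonic ones 29.8% on 48, intronic ones 31.0% on 20 and intergenic ones 33.3% on 8.5. Of the 61 members with fewer than 6 cytosines, 55 were intronic or intergenic and 4 were at a gene start.

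**Figure D3:**
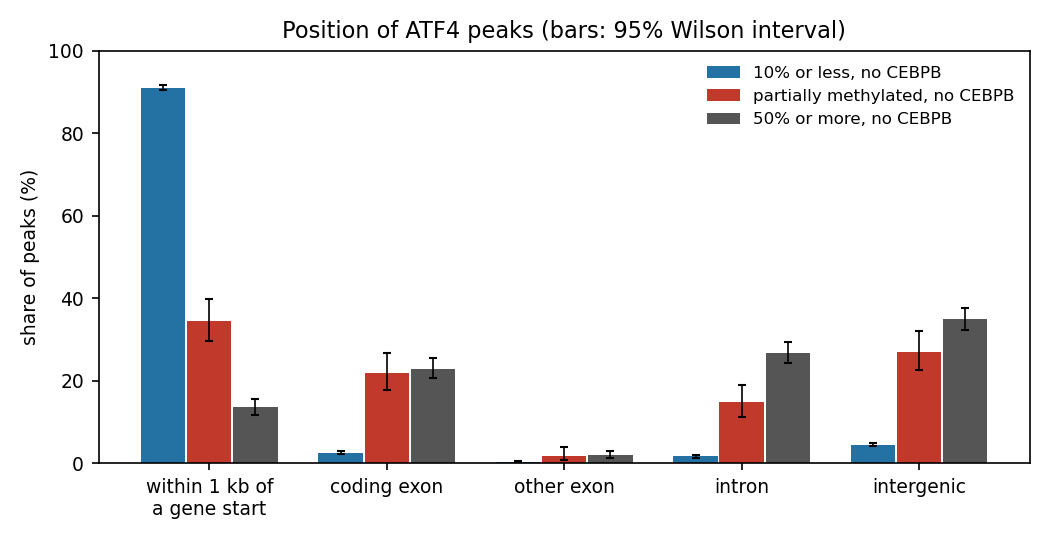
Share of ATF4 peaks (y axis, percent of peaks) by position in the annotation (x axis), for ATF4 peaks without CEBPB of 3 methylation classes. Bars give the share and lines its 95% Wilson interval. Peaks within 1 kb of a gene start are counted only there. Gene starts take 91.1% of unmethylated, 34.5% of partially methylated and 13.6% of methylated peaks, and coding exons 21.9% of partially methylated peaks.

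A transcript of a coding gene started within 1 kb of 96 members, at the 5' end of the gene or inside it. In 72 of them the peak centre lay downstream of that start, on the transcribed side. The start itself had CpGs within 100 bp in 94 of the 96. In 24 of these the start was unmethylated (10% or less), in 59 it was intermediate and in 11 it had 50% or more. Of these 24, some peaks covered the start, as at Ppp1r2 (10.6% in the peak, 6.17% at the start), and others lay beside it, as at Taco1 (20.7% and 0.111%). The flank upstream had a median of 39.7% and the flank downstream 50.8%.

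The base composition of members was also in between. Their median GC content was 67.3%, against 71.4% in unmethylated and 60.4% in methylated peaks. The observed over expected CpG ratio in the 1 kb around the centre had a median of 0.574, against 0.806 and 0.325. A GC content over 50% together with a ratio over 0.6 in that 1 kb, the usual marks of a CpG island, was found for 152 members (45.6%, interval 40.4% to 51.0%), 92.1% of unmethylated and 10.1% of methylated peaks.

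The words TGACGTCA and TGATGCAA were rare. TGACGTCA, the palindrome that CREB and ATF dimers bind, was in none of the 333 peaks, and a count of 0 allows a share of up to 0.901% (3 counts of 333). It was in 174 unmethylated peaks (2.34%), in 2 methylated peaks (0.172%), in 1.66% of windows of 237 bp, the members' median width, at the starts of coding transcripts, and in 0.132% of genome windows of that width. TGATGCAA was in 1 member (0.300%), in 0.377% of unmethylated and 0.172% of methylated peaks. It was in 0.484% of windows at coding starts and in 0.733% of genome windows. The partially methylated peaks that overlapped CEBPB held it in 8 of 54 (14.8%, interval 7.70% to 26.6%, against 0.0530% to 1.68% for the members). CEBPB overlap separated these 2 sets and the word holds a C/EBP half-site, so the lower share in members is no independent result. Peaks with CEBPB were also wider (median 351.5 bp against 237 bp) and scored higher (median 14.12 against 5.06).

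Among the forms with a CpG, CGATGCAA was in 2 members and TGACGCAA in 2, each 0.601%, and TTGCGCAA in 1, 0.300%. CGATGCAA was in 0.148% of unmethylated and 0% of methylated peaks and in 0.225% of genome windows. For TGACGCAA these shares were 0.565%, 0% and 0.0608%, and for TTGCGCAA 0.121%, 0.0858% and 0.0191%. Windows at coding starts held CGATGCAA in 0.0998%, TGACGCAA in 0.471% and TTGCGCAA in 0.140%. The members' counts of 1 or 2 give wide intervals, 0.165% to 2.16% for a count of 2. All words were searched on both strands. The Gltpd2 peak, which scored 9.48 and had 23.6% methylation, carried CGATGCAA with its 2 CpG cytosines at 45% and 42%. The centre of that peak lay 1143 bp downstream of the Gltpd2 start, which was itself 85.5% methylated over 12 cytosines. The other CGATGCAA lay in an intergenic peak on chromosome 5 with a mean of 48.0%, at a cytosine of 80%. The TGACGCAA words lay at the starts of Gmeb2, a factor that binds glucocorticoid modulatory elements (cytosines at 19% and 28%), and of Dnajb3, a DNAJ co-chaperone (16% and 8%). The Klhl30 peak, which had a score of 2.90 and 10.4% methylation, carried TTGCGCAA with both cytosines at 27%. The measured cytosines of these words ran from 8% at Dnajb3 to 80% in the chromosome 5 peak. The peaks were chosen for an intermediate mean methylation, which made such values likely beforehand. They are therefore given as a description.

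The other words searched varied in how they followed the classes. GGGCGG, the GC box read by SP and KLF factors, was in 41.4% of members, 73.4% of unmethylated and 16.7% of methylated peaks. CCGGAAG, an ETS site, was in 3.00% of members and 12.5% of unmethylated peaks, and in 21 of the 1165 methylated ones. ATTGG, the core of the NFY site, was in 19.5% of members (interval 15.6% to 24.1%), 17.3% of unmethylated and 16.7% of methylated peaks. The palindrome of NRF1 was in no member, 1.79% of unmethylated and 0.601% of methylated peaks. The E-box palindrome CACGTG, read by MYC and USF families, did not follow the classes: it was in 34 members (10.2%, interval 7.40% to 13.9%), 9.59% of unmethylated and 9.70% of methylated peaks, and in 5.67% of windows at coding starts. Unmethylated peaks were wider (median 282 bp), which gives any word more room. A word is a match of letters, not a measured site.

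No CEBPB peak was listed at these sites in untreated cells either. The overlap was 0 of 333, and a count of 0 allows a share of up to 0.901% (3 counts of 333). The choice did not use this list. It did drop every peak with CEBPB in treated cells, and so any site listed in both states, which makes a low count likely beforehand. An overlap was found for 1.21% of unmethylated and 0.172% of methylated peaks, whereas 11 of the 54 partially methylated peaks with CEBPB (20.4%, interval 11.8% to 32.9%) overlapped one. Within 1 kb, 8 members (2.40%) had a CEBPB peak of treated cells, close to 2.18% of unmethylated and 1.72% of methylated peaks. A CEBPB peak of untreated cells lay within 1 kb of 3 members (0.901%), 4.20% of unmethylated and 1.03% of methylated peaks.

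ATF4 scores of members were modest. The authors' score per peak, whose unit is not given in the sources used here, had a median of 5.06 (quartiles 3.93 and 6.38, range 2.22 to 34.73) against 5.41 over all ATF4 peaks. A score at or above the upper quartile of all ATF4 peaks was reached by 56 members (16.8%, interval 13.2% to 21.2%), 27.3% of unmethylated and 11.5% of methylated peaks, and by 68.5% of the partially methylated peaks with CEBPB, whose median score was 14.12. Within the members the score was nearly unrelated to methylation: Spearman's rho was -0.129 over the 333 peaks and -0.0249 over the 272 with 6 or more cytosines, as a description over peaks of 1 library.

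The highest scores fell mainly outside coding gene starts. The first, 34.73, was a peak on chromosome 16 (chr16:11144002-11144403) at the start of the annotated microRNA mmu-mir-689-2 within Zc3h7a, with 62 cytosines at a mean of 23.4% and flanks at 83.9% and 81.8%. Of its 100-base windows 71.4% matched elsewhere in the genome with at most 3 mismatches, so reads of several copies cannot be told apart there. The second, 29.70, was intergenic on chromosome 10 (chr10:11211854-11212140), with 48 cytosines from 0% to 100% and a mean of 48.9%. That peak is the opposite of the imprinted ones below, since it joined bare and methylated cytosines. The third, 26.73, lay within Fgfr2, a fibroblast growth factor receptor gene, at the start of the annotated transcript AC115697.1, with 42 cytosines at 36.1%. The fourth, 25.90, was the start of 2610005L07Rik on chromosome 8, with 125 cytosines at 10.7% and 61.5% of its windows copied elsewhere.

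The fifth, 25.15, was the intergenic peak that carries TGATGCAA (chr7:106508693-106508981). The element began within 17 bp of its centre, its 10 cytosines had a mean of 14.0% (7% to 20%), and the nearest start was that of Serpinh1, the collagen chaperone of the endoplasmic reticulum, 6953 bp away. Serpinh1 was listed at 1222 FPKM untreated and 1328 FPKM after thapsigargin, a ratio of 1.09, so its RNA hardly differed between the 2 libraries. The rest of the top 10 were an intergenic peak on chromosome 1 with only 2 cytosines (18.46), an intron of Dhrs3, a retinaldehyde reductase gene (15.18, 35.8% methylated), the start of 4930478K11Rik within Hhipl1 (14.00, 122 cytosines at 13.3%), the start of Gm13034 (13.37, 60% copied) and a coding exon of the homeobox gene Shox2 (12.65, 102 cytosines at 17.9%). Over all members 20 had at least 50% of their windows copied elsewhere (6.01%, interval 3.92% to 9.09%), against 0.283% of unmethylated and 2.49% of methylated peaks. Among partially methylated peaks with CEBPB the share was higher, 9 of 54 (16.7%, interval 9.02% to 28.7%). Of the 20 members, 11 were at gene starts.

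Members rich in CpG cytosines included a coding exon of Crb2, an epithelial polarity gene (158 cytosines at 47.9%), the Grb10 start (151 at 29.1%), an intron of Agap3 (148 at 31.7%) and a coding exon of Prrt3 (144 at 13.3%). Their scores lay between 4.13 and 8.69. Single cytosines in them spanned a wide range, from 0% to 55% at Grb10 and from 0% to 78% at Prrt3.

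Imprinted genes were the named group with most starts at these peaks. Of 47 listed imprinted genes in the RNA tables, 6 had a start within 1 kb of a member, at 5 peaks, and 9 had one at an unmethylated ATF4 peak, with Grb10 and Herc3 at both kinds. The 6 are a share of 6 in 97 genes at members, and the 9 a share of 9 in 6728 genes at unmethylated peaks. For comparison, the 47 listed genes stand beside 21960 autosomal entries in the RNA tables. Intermediate methylation chose the members and is also what imprinted control regions read in many cells. A higher share at members was therefore likely beforehand. The list was written knowing earlier results of these data and is described, not tested.

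Plagl1, a zinc finger gene read from the paternal copy, had a peak at its start (chr10:12810338-12810873, score 8.90) with 103 cytosines at 35.5% ± 9.46 (SD over cytosines), of which 98 were between 20% and 80%. Grb10, an adaptor that dampens insulin receptor signalling, had one at chr11:11925846-11926430 (score 8.38) with 151 cytosines at 29.1% ± 10.6, of which 125 were in that range. A second peak at another Grb10 start had 1.91%, so of this gene's starts under ATF4 peaks 1 was intermediate and 1 bare. Igf2r, the receptor that carries IGF2 to lysosomes, had its peak at chr17:12962250-12962706 (score 6.06) with 116 cytosines at 22.7% ± 10.6, of which 68 were in range.

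Mest, a paternally expressed gene of the hydrolase fold, had the weakest of the 5 peaks (chr6:30688201-30688397, score 2.61), with 53 cytosines at 27.3% ± 11.1, 43 of them in range. Nap1l5, an intronless gene inside an intron of the ubiquitin ligase gene Herc3, had a peak at chr6:58856784-58857187 (score 5.06) with all 76 cytosines in range, at 44.1% ± 8.57. At none of the 5 peaks was a cytosine above 80%. Beyond 1 kb from the peak edge the median cytosine was at 77% for Plagl1, 78% for Grb10, 74% for Igf2r and 89.5% for Nap1l5, so these peaks lay in dips of methylated DNA. At Mest it was 48%, and 149 of 161 cytosines there were between 20% and 80%, so intermediate methylation reached past that peak within the 3 kb examined.

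**Figure D4:**
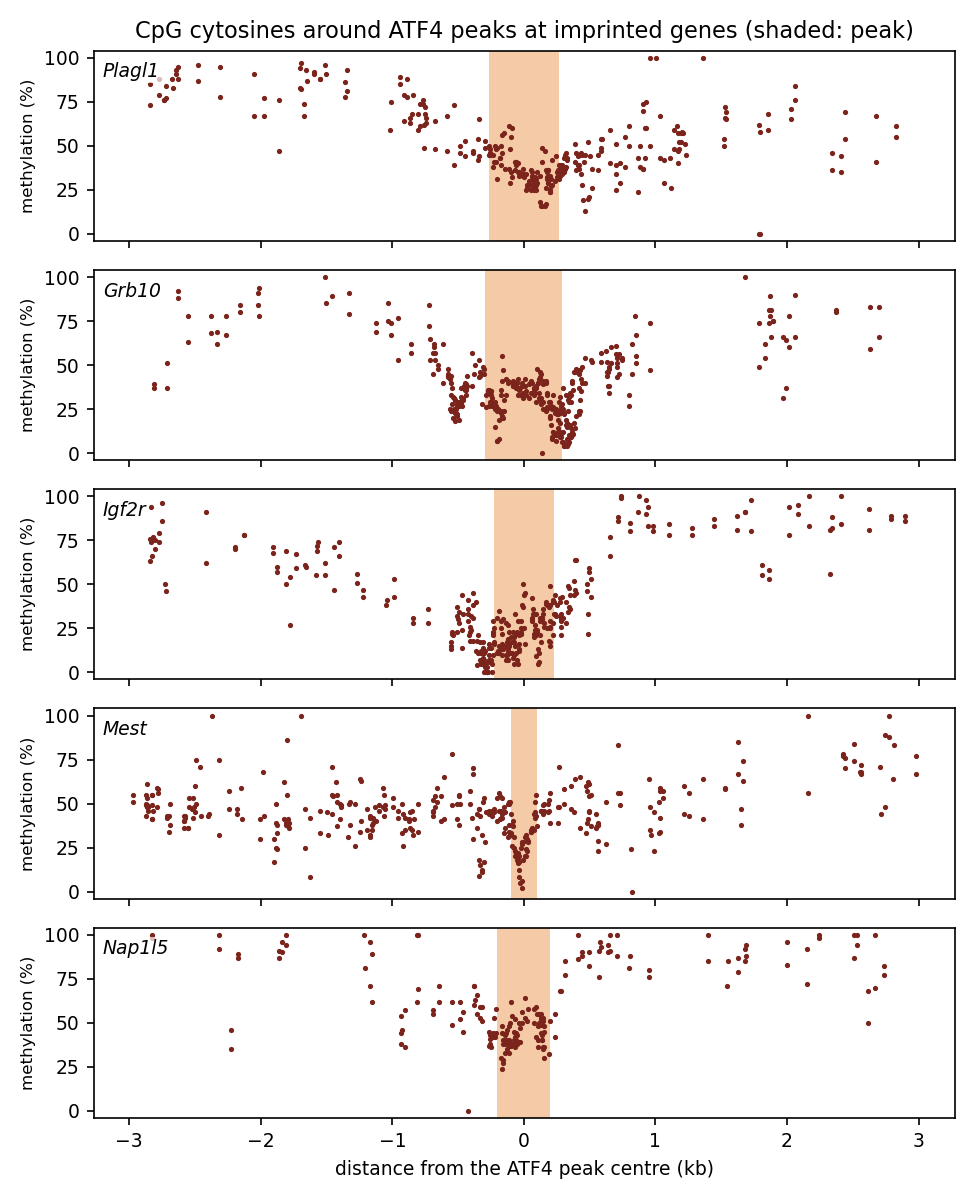
Methylation of single CpG cytosines (y axis, percent) against the distance from the ATF4 peak centre (x axis, kb) at 5 partially methylated ATF4 peaks at starts of imprinted genes; each dot is a cytosine and the shaded band is the peak. All cytosines inside the peaks lie at 64% or below, and at Mest cytosines beyond 1 kb of the edge stay near a median of 48%.

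ATF4 peaks at other imprinted starts fell outside the set. Dlk1 had 54.2%, just above the upper threshold, with all 40 cytosines between 20% and 80%. Impact had 37.7% with all 111 cytosines in that range but overlapped a CEBPB peak. Igf2 had 89.7%. Peg12, an imprinted gene that is not in the list and was noticed after its values were seen, had 2 members near its start, at 16.5% and 13.5%.

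Other gene groups were rare at members. Of 38 listed germline genes only Dazl had a start there, and of 40 Hox genes Hoxd3 (28.5%, 36 cytosines) and Hoxa2 (11.2%, 46 cytosines), which pattern the body axis. No member lay at a start of the 24 listed ATF4 and CHOP targets, the 18 chaperones of the endoplasmic reticulum, the 36 tRNA synthetases, the 11 amino acid transporters or the 48 bZIP factors. Unmethylated ATF4 peaks lay at 13, 16, 15, 6 and 32 of these. None of 17 DNA methylation genes and none of 59 protocadherin starts were at a member, against 10 and 1 at unmethylated peaks. Members lay at 97 of the 21960 autosomal entries and unmethylated peaks at 6728, and against so small a share the counts of 0 are not a result about the members.

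Genes at members were less expressed than genes at unmethylated peaks and differed little from genes at large. RNA is given as FPKM, fragments scaled to gene length and library size, so levels can be compared between genes. The members named 120 genes, of which 97 were in both RNA tables with a single locus. Their median in untreated cells was 0.662 FPKM (95% order-statistic interval over genes 0.301 to 2.15), against 9.08 at unmethylated peaks and 0.291 at methylated peaks. At least 1 FPKM was reached by 48.5% of them, by 83.4% and 41.5% of genes at the other classes and by 52.0% of all 21960 autosomal entries, whose median of 1.37 FPKM lies within the members' interval. Under 0.1 FPKM were 29.9% of genes at members and 36.9% of all entries. In bulk RNA fewer cells of a type and less RNA per cell cannot be told apart.

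Median levels were ordered by the methylation of the annotated transcript start near the peak, which is not always the 5' end of the gene. In each group below some of these starts lay inside the gene. Examples are Map3k6 and Ccdc61 at 10% or less, and Tbx3 and Kcnab2 at an intermediate level. Others are Hoxd3, Kcnd3, Sema5b and Tnfaip2 at 50% or more. The order below therefore need not hold for the methylation of 5' ends. Some starts of 50% or more rested on few cytosines, such as 2 at Hoxd3 and 8 at Kcnd3. Coding genes whose start was at 10% or less had a median of 3.44 FPKM (22 genes), those with an intermediate start 0.848 FPKM (53 genes) and those with a start of 50% or more 0.228 FPKM (10 genes). The ranges overlapped: genes with an intermediate start ran from 0 to 273 FPKM, the latter being Mest. The highest gene with such a start at 50% or more was Tnfaip2 at 20.2 FPKM. This is a description of 1 RNA library without a test.

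After 3 h of thapsigargin, genes at members differed from untreated cells about as often as any gene. Of 48 expressed genes (1 FPKM or more in a library), 4 were higher by at least 1 in log2(FPKM + 1), which is 8.33% (interval 3.29% to 19.6%) against 6.05% of the 11750 expressed genes. Another 16 were lower by at least 1, which is 33.3% (interval 21.7% to 47.5%) against 28.1% of all. The intervals hold both background shares. The pseudocount of 1 understates the change of low genes.

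The scale mattered for the lower genes. Genes at 5 FPKM or more in both libraries had a median change of -0.39 on the log2 scale. Relative to that shift 7 of the 48 were higher and 10 lower, 14.6% and 20.8%, against 11.0% and 15.7% of all. The change also moved with junction density, the exon junctions of a gene per kb of its transcripts (Spearman's rho -0.384 over 11360 genes, across genes). Set against genes of like junction density, 8 of 45 were higher and 6 lower, 17.8% and 13.3%, against 12.4% and 10.5%. What part junction density had in the lower genes was not tested.

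The 4 higher genes were higher on each of the 3 scales. Tnfaip2, a gene first known for its induction by tumour necrosis factor, was listed at 20.2 FPKM untreated (deposited confidence bounds 19.6 to 20.8) and 105 FPKM treated (105 to 106), a ratio of 5.23. Its peak had the low score of 2.84 and 27.9% methylation. The peak lay inside the gene, upstream of an internal transcript start that was 51.8% methylated. Methylation at the 5' end of the gene is not given here. Foxf1a, a forkhead factor of mesenchyme, went from 1.29 to 4.70 FPKM, and Gp1bb, which encodes a platelet glycoprotein, from 4.52 to 12.6 FPKM. Nap1l5 went from 2.58 FPKM (2.28 to 2.87) to 6.40 FPKM (6.07 to 6.72), a ratio of 2.48. The start of Foxf1a itself was bare, at 0.242% over 62 cytosines, with its peak centred 633 bp downstream.

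The next largest differences upwards stayed under the threshold of 1. They were Gcsh, a subunit of the glycine cleavage system, from 7.75 to 14.0 FPKM, Gmeb2 from 6.14 to 10.8 FPKM, the splicing factor gene Srsf10 from 22.4 to 36.4 FPKM, and Hoxd3 from 2.15 to 3.36 FPKM. Art1, an ADP-ribosyltransferase gene, was at 0.848 and 1.40 FPKM and Ccdc117 at 6.11 and 7.25 FPKM. Gcsh, Gmeb2 and Srsf10 passed 1 once the shift of -0.39 was taken off, at 1.17, 1.12 and 1.07.

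Imprinted genes were among the largest decreases. Mest went from 273 FPKM (270 to 275) to 47.0 FPKM (45.9 to 48.0), a log2 change of -2.51, and Igf2r from 47.9 to 13.1 FPKM, 3.67-fold lower. Against genes of like junction density the log2 changes were -1.47 and -1.08. Grb10 went from 141 to 65.7 FPKM, -1.09 on the plain scale but -0.29 against genes of like junction density, so its place among the lower genes depends on the scale. Plagl1 was at 53.7 and 36.8 FPKM and Herc3 at 1.56 and 1.25 FPKM, both within the threshold. Of the 6 imprinted genes, 3 were therefore lower on the plain scale, 1 was higher and 2 were neither. Of all 11750 expressed genes 28.1% were lower and 6.05% higher, and with 6 genes these counts are not a result about imprinted genes.

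The other large decreases were mostly genes of modest level. Mpnd went from 36.7 to 5.66 FPKM, and its start also had an unmethylated ATF4 peak. 4833403I15Rik went from 6.12 to 0.487 FPKM, and Sspn, which encodes sarcospan of the dystrophin complex, from 9.29 to 2.06 FPKM. These 3 were lower by more than 1 on all 3 scales, and so was Taco1, from 7.08 to 2.01 FPKM. Ccdc61 (6.03 to 1.13 FPKM), the unconventional myosin gene Myo18a (9.82 to 2.48), Rtkn (11.2 to 3.39) and the ciliary gene Dzip1 (5.93 to 1.62) were lower by 0.33 to 0.76 once set against genes of like junction density. Hoxa2 was at 2.81 and 1.79 FPKM, and Dazl was near 0 in both libraries, at 0.0105 and 0.0152 FPKM.

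**Figure D5:**
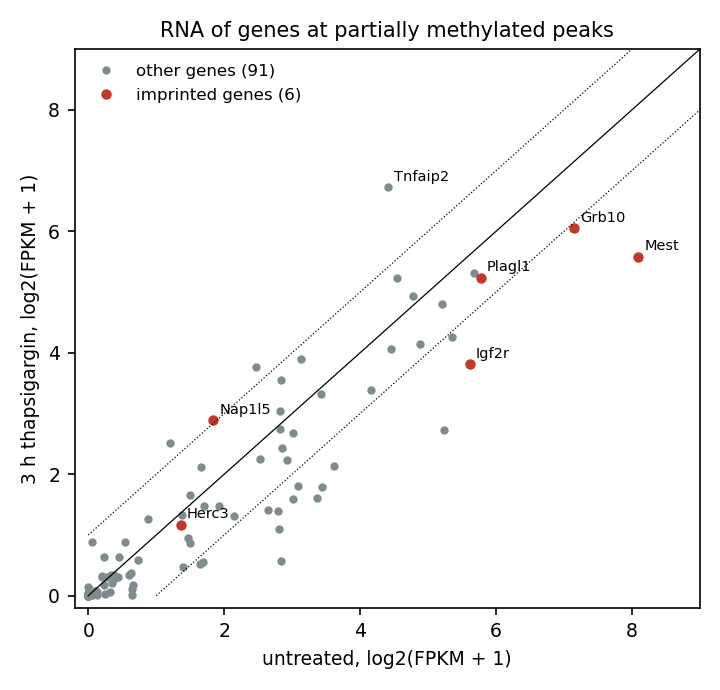
RNA level after 3 h of thapsigargin (y axis, log2(FPKM + 1)) against untreated cells (x axis, same scale) for the 97 genes with a start within 1 kb of a partially methylated ATF4 peak without CEBPB; each point is a gene and each condition is 1 library. The solid line marks equal levels and the dotted lines a difference of 1, above which lie Tnfaip2 and 3 other expressed genes and below which lie Mest, Igf2r and Grb10 among 16.

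As for the cells themselves, all 10 fibroblast markers were at 1 FPKM or more in both libraries, with a summed level of 16134 FPKM untreated and 4113 FPKM treated. Macrophage and leukocyte markers were present too: of 7 chosen, Adgre1 was not matched and the other 6 were at 1 FPKM or more, with sums of 1139 and 1080 FPKM. Lyz2 made up most of both sums (880 and 951 FPKM), while Cd74 was at 143 and 5.61 FPKM, Csf1r at 20.5 and 36.5 FPKM and Itgam at 5.18 and 11.3 FPKM. Keratinocyte markers summed to 27.0 FPKM with 6 of 7 at 1 FPKM or more untreated, and to 1.30 FPKM with none treated. Muscle markers summed to 59.7 and 33.5 FPKM and melanocyte and Schwann markers to 41.6 and 5.92 FPKM. None of 4 endothelial markers reached 1 FPKM, and 1 of 3 adipocyte markers did. What part these other cells had in the intermediate methylation was not tested.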

How the data were processed

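ATF4 and CEBPB immunoprecipitation, RNA and bisulfite libraries of cultured mouse dermal fibroblasts were used, grouped by their labels. Per the submitters' processing notes, reads were handled on mm9 with CASAVA 1.8.2 and Bowtie (RNA), CASAVA 1.7, BWA and SAMtools (immunoprecipitation) and CASAVA 1.8 and Novoalign (bisulfite). The names of the deposited CEBPB peaks carry MACS; for the ATF4 peak caller, controls, settings and the RNA quantification program, nothing is given in the sources used here. The authors deposited a score per peak, FPKM per gene with confidence bounds, and a whole-number percent of methylation per CpG cytosine, in a table that names no library, taken here as pooled over both bisulfite libraries, and without coverage, so its depth is unknown and no interval is given for a methylation percent. Read totals of the libraries are not in these tables, and the precision of FPKM is given by the deposited bounds, which cover error within a library only.

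From these, 39464349 entries marked CpG were read (83035 marked heterozygous were left out), and cytosines were averaged with equal weight per peak. An overlap was 1 bp. Positions came from the GENCODE vM1 annotation and letters from the mm9 genome sequence. A gene start was the start of any annotated transcript, including starts inside a gene. A window of 100 bases, every 50 bases, counted as copied when minimap2 2.31-r1302 placed it elsewhere with at most 3 mismatches. RNA changes were differences of log2(FPKM + 1) among entries at 1 FPKM or more in a library; 601 of 23583 shared entries with a repeated symbol were dropped. Shares carry Wilson 95% intervals; the limit given for a count of 0 is 3 counts of the total. Python 3.11.15, pandas 2.3.3 and scipy 1.17.1 were used, and the counting steps were checked on simulated data. With 1 library per condition no test was run.

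Named peaks were the 10 highest scores, the 5 highest away from gene starts, the 5 with the most cytosines, and the 3 nearest each side of each threshold; 1 peak that this rule takes is not reported here. Named genes were the 10 largest increases and decreases among expressed genes at members, leaving out ribosomal protein genes, numbered models and genes of microRNA or small nucleolar RNA, and every listed gene with a start at a member. The members and lists were chosen with earlier results of these data known.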

Additional observations from a re-analysis of the deposited data

How the results depend on the processing

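Of 68 alternative values, 54 stayed within the 95% interval of the reported share or median or, for the number of members, within 1.5 times, and 14 did not; the interval of cytosine shares is narrow. Within its wide interval the share of higher genes went from 8.33% to 14.6% centred and to 17.8% against genes of like junction density. Keeping peaks with a score at or above the median of all ATF4 peaks left 138 members, with 43.5% at gene starts, 54.3% of cytosines between 20% and 80%, and 0% of expressed genes higher. A mean over 20% and under 40% left 133 members, 68.5% of cytosines in that range and TGATGCAA in 0% of peaks. The share at gene starts was 40.8% with 6 or more cytosines and 42.6% with a reach of 2 kb. The share of intermediate cytosines was 53.4% with both strands averaged and 32.8% when counted from 30% to 70%. Lower genes were 16.5% with no filter on low values, 20.8% centred and 13.3% against genes of like junction density. The cause of these moves was not tested, except that the narrower bounds are fewer peaks or cytosines by construction. The leaving out of copied peaks and the junction comparison were chosen after seeing the data. No paired analysis was possible because each condition had 1 library and the bisulfite libraries were taken as pooled in 1 table, so no library could be left out either. Without coverage, methylation of peaks with few cytosines is the least certain.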
